A study of Mus musculus with 16 samples.

Results

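The metabotropic glutamate receptors are G protein-coupled receptors, and 6 of their genes, Grm5, Grm2, Grm3, Grm4, Grm7 and Grm8, were followed here by gene symbol among the 39017 gene rows that each of 3 comparison tables holds. The study asked which RNAs the polysomes of prelimbic cortex (PL) neurons carry, depending on where the neurons send their axons. In C57BL/6J mice, an inbred strain, a virus carrying Cre-dependent GFPL10, a ribosomal protein fused to green fluorescent protein, was put into PL. The canine virus CAV-Cre, which is taken up by axons, went into the nucleus accumbens (NAc), basolateral amygdala (BLA) or ventral tegmental area (VTA). Anti-GFP beads then pulled down the tagged polysomes (IP), and the Input was the total RNA of the PL around them. There were 3 IP libraries and 3 Input libraries for PL-NAc, the same numbers for PL-BLA, and 2 of each kind for PL-VTA. All 6 groups carried both viruses. The tag marks cells that took up both, so neurons with branches to several targets can fall in more than 1 projection. The labels give no age, and do not say whether a library came from 1 animal or a pool.

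Metabotropic receptors respond to glutamate through G proteins instead of opening a channel of their own. Group I receptors, here Grm5, couple to phospholipase C and calcium release and lie mostly at the edge of the postsynaptic site. Group II (Grm2 and Grm3) and group III (Grm4, Grm7 and Grm8) inhibit adenylyl cyclase and, on axon terminals, reduce transmitter release. Grm3 is also known from astrocytes, and Grm7 and Grm8 from terminals close to the release site.

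The values are those of the authors' comparison of IP with Input in each projection, because values per library were not used here. Each gene has a mean normalized read count over the libraries of its comparison and a log2 fold change of IP over Input with a standard error (SE). A gene was called higher or lower at an adjusted p under 0.05. The direction is not named in the table headers and was read as IP over Input because markers of glia, which the IP should lack, were negative. The fall of glial markers is therefore set by that reading.

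All 6 genes lie on GRCm38 chromosomes, by matching their Ensembl identifiers to the GENCODE M21 annotation. Grm2 (ENSMUSG00000023192) is the most compact, on chromosome 9 from 106643095 to 106656082. Grm3 (ENSMUSG00000003974) lies on chromosome 5 from 9485541 to 9725170, and Grm4 (ENSMUSG00000063239) on chromosome 17 from 27422387 to 27521403. Grm5 (ENSMUSG00000049583) lies on chromosome 7 from 87584168 to 88134907. Chromosome 6 holds both Grm8 (ENSMUSG00000024211), from 27275119 to 28135178, and Grm7 (ENSMUSG00000056755), from 110645581 to 111567230. The library kit does not mark strand, so reads in exons shared with a gene on the other strand cannot be told apart. Such sharing covered 470 of 4894 exon bases of Grm2 (with Gm28111) and 130 of 5886 of Grm7 (with Gm20387). Gm20387 averaged 32.9, 66.5 and 60.8 normalized counts in PL-NAc, PL-BLA and PL-VTA in the authors' deposited table. Another 96 of 9898 exon bases of Grm8 are those of Mir592, which had a mean of 0 in all 3 tables.

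Grm2 and Grm8 were the members furthest above Input in both PL-NAc and PL-BLA, and the 250 bases before their RefSeq starts are shown for that reason (GRCm38.p6, minus strand, 5′ to 3′). RefSeq windows matched 4 of the 6 members. Capitals mark GC boxes (GGGCGG on either strand) and CCAAT boxes (CCAAT on either strand).
Grm2, chr9:106656110-106656359: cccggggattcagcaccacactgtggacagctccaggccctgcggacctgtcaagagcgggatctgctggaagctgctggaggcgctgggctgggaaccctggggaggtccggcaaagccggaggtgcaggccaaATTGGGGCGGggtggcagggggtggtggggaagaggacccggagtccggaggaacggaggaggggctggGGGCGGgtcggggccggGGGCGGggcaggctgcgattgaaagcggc
Grm8, chr6:28135147-28135396: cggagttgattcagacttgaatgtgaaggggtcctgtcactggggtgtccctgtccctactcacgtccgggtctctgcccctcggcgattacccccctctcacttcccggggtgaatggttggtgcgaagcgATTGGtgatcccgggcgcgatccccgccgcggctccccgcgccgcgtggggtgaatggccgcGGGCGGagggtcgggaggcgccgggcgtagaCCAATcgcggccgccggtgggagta
The Grm2 window held 3 GC boxes and 1 CCAAT box, which overlaps the first GC box, and the Grm8 window shown held 1 GC box and 2 CCAAT boxes. RefSeq gives Grm8 2 further windows, neither with a GC box, which held 1 and 0 CCAAT boxes. GC boxes were present in 32.7% and CCAAT boxes in 33.8% of all 32851 windows of 250 bases, so the letters are common. The Grm8 window shown held 29 CpG dinucleotides, its further windows 8 and 2, and the Grm2 window 16. Each window of Grm3 and Grm7 held 1 GC box and no CCAAT box.

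Per length, over IP and Input together, Grm3 and Grm2 were the most abundant of the 6 and Grm8 the least in each projection. On the scale of mean normalized counts per kilobase of exon and per 1000000 counts, over IP and Input together, Grm3 stood at 22.5, 29.6 and 20.4 in PL-NAc, PL-BLA and PL-VTA. Grm2 stood at 14.0, 14.8 and 11.98 on the same per-length scale. Levels of Grm7 (4.97, 5.99 and 5.36) and Grm5 (4.96, 5.85 and 6.26) were close to each other, followed by Grm4 (3.61, 3.85 and 4.93) and Grm8 (2.33, 2.31 and 2.32). In the PL-BLA IP alone, by implied counts on the same per-length scale, Grm4 (2.98) stood below Grm8 (3.08). No spread over libraries comes with these means, so it cannot be said which neighbours in this order differ. The exon lengths count all annotated isoforms, which lowers the level of genes with long exons that these cells may not use.

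**Figure D1:**
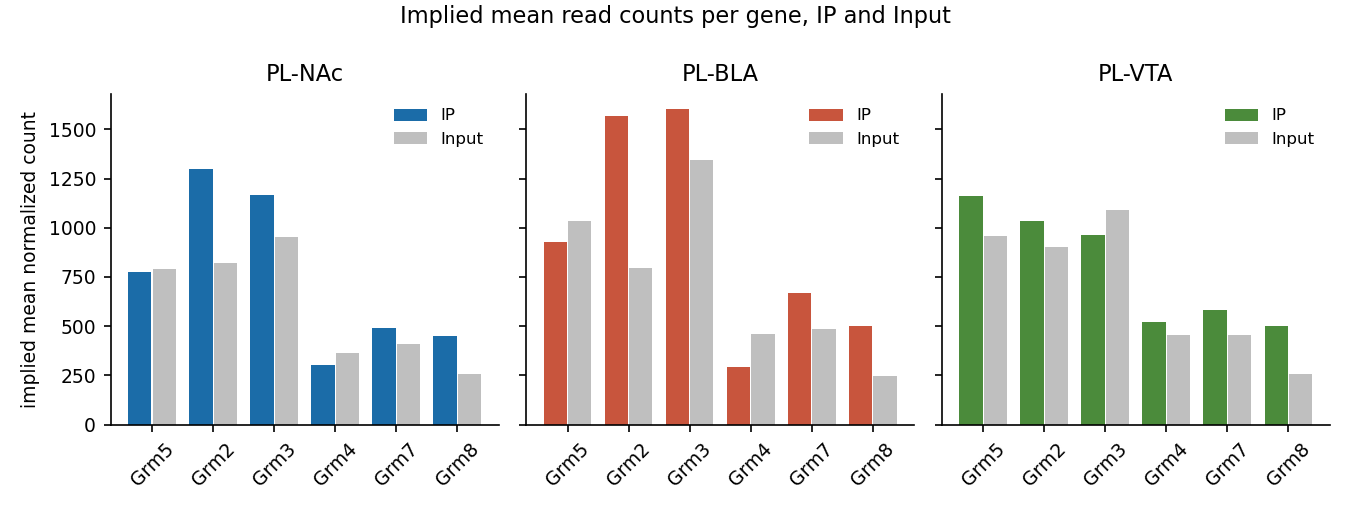
Bars show the mean normalized read count in IP (coloured) and Input (grey) implied by each table's mean and log2 fold change, for the 6 genes in 3 projections; counts are not divided by length and the tables give no spread for them. In PL-BLA, Grm2 stands at 1570 in IP and 795 in Input, and Grm4 at 291 in IP and 461 in Input.

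Group I is represented by Grm5, a postsynaptic receptor that binds Homer scaffolds. Its mean count was 784 in PL-NAc and 980 in PL-BLA, and 1059 in PL-VTA, in the authors' deposited table. Implied counts were 777 in IP and 792 in Input for PL-NAc, 926 in IP and 1034 in Input for PL-BLA, and 1162 in IP and 956 in Input for PL-VTA. The log2 fold change was -0.03 (SE 0.11) for PL-NAc, -0.16 (SE 0.10) for PL-BLA and 0.28 (SE 0.18) for PL-VTA in the authors' deposited table. Grm5 was not called in any projection (adjusted p 0.874, 0.197 and 0.286, DESeq2 in the authors' deposited table). Its 95% intervals in fold, IP over Input, ran from 0.845 to 1.14 for PL-NAc, 0.783 to 1.02 for PL-BLA and 0.955 to 1.55 for PL-VTA. A change of over 2-fold lies outside all 3 intervals. Centred on excitatory markers, Grm5 was called lower in PL-NAc (-0.66) and PL-BLA (-0.79), with adjusted p of 9.4e-09 and 8.1e-15 by the Wald test over all genes. The centre, a median of 7 markers, was subtracted as a fixed value here and below. P-values on this centring therefore leave out the uncertainty of the centre.

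Of the group II pair, Grm2, an autoreceptor of cortical terminals, was higher in the IP of both telencephalic projections. Its implied counts were 1298 in IP and 821 in Input for PL-NAc, and 1570 in IP and 795 in Input for PL-BLA. In PL-VTA they were 1033 in IP and 904 in Input. The fold of IP over Input was 1.58 in PL-NAc (95% interval 1.40 to 1.78) and 1.98 in PL-BLA (1.74 to 2.25). As log2 values these were 0.66 (SE 0.09, adjusted p 1.5e-12) and 0.98 (SE 0.09, adjusted p 1.5e-23), by DESeq2 in the authors' deposited table. In PL-VTA Grm2 was at 0.19 (SE 0.18, adjusted p 0.518) and not called, by DESeq2 in the authors' deposited table. In PL-BLA 1.69% of tested genes stood higher than Grm2, against 6.71% in PL-NAc and 33.8% in PL-VTA. Centred on excitatory markers, Grm2 was 0.03 (adjusted p 0.747) in PL-NAc and no longer called, and 0.35 in PL-BLA, where it stayed higher, by the Wald test over all genes.

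Grm3, found on neurons and astrocytes, was slightly higher in the IP of PL-NAc and PL-BLA, a direction that turned negative when fold changes were centred on excitatory neuron markers. Its implied counts were 1167 in IP and 953 in Input for PL-NAc, 1603 in IP and 1345 in Input for PL-BLA, and 962 in IP and 1089 in Input for PL-VTA. The log2 fold change was 0.29 (SE 0.09, adjusted p 0.00430) in PL-NAc and 0.25 (SE 0.10, adjusted p 0.0305) in PL-BLA, by DESeq2 in the authors' deposited table. In PL-VTA it was -0.18 (SE 0.18, adjusted p 0.556), by DESeq2 in the authors' deposited table. Centred on the excitatory markers, Grm3 was -0.34 (adjusted p 0.000498) in PL-NAc and -0.38 (adjusted p 0.000324) in PL-BLA by the Wald test fitted over all genes, which were lower calls. With standard errors 1.5 times as large, neither call of Grm3 passed (adjusted p 0.103 in PL-NAc and 0.243 in PL-BLA, Wald test over all genes).

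All 10 astrocyte markers fell in PL-NAc and PL-VTA and 9 of 10 in PL-BLA, and the medians were -2.28, -1.53 and -1.53 across PL-NAc, PL-BLA and PL-VTA in the authors' deposited table. The 1 that did not was Aldh1l1, named after the count was seen, at 0.23 (SE 0.11) in PL-BLA in the authors' deposited table. The glutamate transporter gene Slc1a3, a marker of astrocytes, was -1.98 (SE 0.08), -1.35 (SE 0.09) and -1.40 (SE 0.15) in the same order in the authors' deposited table. Summed over the 10 markers, implied counts were 12166 in IP and 38445 in Input for PL-NAc, 20352 in IP and 40432 in Input for PL-BLA, and 16783 in IP and 40857 in Input for PL-VTA. Most of each sum was Aldoc, with means of 15429, 18032 and 17220 across PL-NAc, PL-BLA and PL-VTA. Aldoc fell less than the list median, at -1.59 (SE 0.06), -0.80 (SE 0.15) and -1.11 (SE 0.14) in that order in the authors' deposited table. No astrocyte marker had a mean of 0, and the part of astrocyte RNA in the Grm3 value was not tested. IP over Input compares pulled-down with total RNA, so these falls give neither the number of astrocytes nor their RNA per cell.

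Group III did not move as 1 block. Grm8, a presynaptic receptor, was the 1 member called in every projection, and it was higher in each IP. Implied counts of Grm8 were 452 in IP and 259 in Input for PL-NAc, 498 in IP and 248 in Input for PL-BLA, and 503 in IP and 257 in Input for PL-VTA. The log2 fold change was 0.80 (SE 0.14, adjusted p 5.3e-08) in PL-NAc and 1.01 (SE 0.15, adjusted p 4.5e-11) in PL-BLA, by DESeq2 in the authors' deposited table. In PL-VTA it was 0.97 (SE 0.24, adjusted p 0.000648), by DESeq2 in the authors' deposited table. These are folds of IP over Input of 1.75 (95% interval 1.44 to 2.11), 2.01 (1.65 to 2.45) and 1.96 (1.41 to 2.71) across PL-NAc, PL-BLA and PL-VTA. Between 1.52% and 3.79% of tested genes stood higher than Grm8 in the 3 tables. On the excitatory centring the PL-NAc value was 0.18 (adjusted p 0.246, Wald test over all genes) and not called. The PL-VTA call was lost with standard errors 1.5 times as large (adjusted p 0.0841, Wald test over all genes).

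Grm7, a receptor of low glutamate affinity at the release site, was higher in the IP of PL-BLA alone by the threshold, and there its sign turned negative when centred on excitatory markers. Its implied counts were 493 in IP and 409 in Input for PL-NAc, 669 in IP and 485 in Input for PL-BLA, and 584 in IP and 458 in Input for PL-VTA. The log2 fold change was 0.46 (SE 0.12, adjusted p 0.000370) in PL-BLA, by DESeq2 in the authors' deposited table. The other two values were 0.27 (SE 0.13, adjusted p 0.0827) in PL-NAc and 0.35 (SE 0.21, adjusted p 0.265) in PL-VTA, by DESeq2 in the authors' deposited table. Differences of Grm7 between projections were all within -0.20 and 0.11, and none was called. Centred on excitatory markers, Grm7 was -0.36 (adjusted p 0.00946) in PL-NAc and -0.17 (adjusted p 0.185) in PL-BLA, by the Wald test over all genes.

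Grm4, best known from parallel fibre terminals of the cerebellum, was the 1 member lower in an IP. Its implied counts in PL-BLA were 291 in IP and 461 in Input. In PL-NAc they were 300 in IP and 366 in Input, and in PL-VTA 520 in IP and 453 in Input. The log2 fold change was -0.66 (SE 0.14, adjusted p 1.1e-05) in PL-BLA, or 0.631 of Input (95% interval 0.522 to 0.763), by DESeq2 in the authors' deposited table. It was -0.29 (SE 0.14, adjusted p 0.0962) in PL-NAc and 0.20 (SE 0.22, adjusted p 0.607) in PL-VTA, by DESeq2 in the authors' deposited table. Grm4 was also called lower in PL-NAc when centred on excitatory markers (-0.91, adjusted p 8.9e-10, Wald test over all genes).

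Counted together, 3 of 6 members were higher and 0 lower in PL-NAc, 4 higher and 1 lower in PL-BLA, and 1 higher and 0 lower in PL-VTA, by DESeq2 in the authors' deposited table. Across all tested genes 21.4% were higher and 21.7% lower in PL-NAc, 20.8% and 20.2% in PL-BLA, and 11.0% and 10.5% in PL-VTA, in the authors' deposited table. These shares include genes with few reads. With a minimum mean of 50 the member counts were the same. Of all genes on that setting, 3854 were higher and 2970 lower of 12061 in PL-NAc. In PL-BLA 3677 were higher and 2882 lower of 12228, and in PL-VTA 1759 and 1509 of 12314. At an unadjusted p under 0.05, 4 members were higher and 1 (Grm4) lower in PL-NAc, 4 and 1 in PL-BLA, and 1 and 0 in PL-VTA. The share of all genes at that unadjusted threshold was not counted. The median log2 fold change of the 6 was 0.28 for PL-NAc, 0.36 for PL-BLA and 0.24 for PL-VTA, against -0.03, -0.02 and 0.02 for all tested genes, in the authors' deposited table. With 6 genes these counts are a description. Centred on the median of 7 excitatory neuron markers, which lay at 0.63, 0.63 and 0.16 across PL-NAc, PL-BLA and PL-VTA, the counts became 0 higher and 4 lower in PL-NAc. On that centring PL-BLA had 2 higher and 3 lower, and PL-VTA 1 higher and 0 lower. Of all 17998 genes tested in PL-NAc, that centring called 409 higher and 12329 lower. In PL-BLA it called 360 higher and 12409 lower of 17668, and in PL-VTA 870 and 2293 of 15440. Most of all tested genes were thus called lower in PL-NAc and PL-BLA on that centring.

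**Figure D2:**
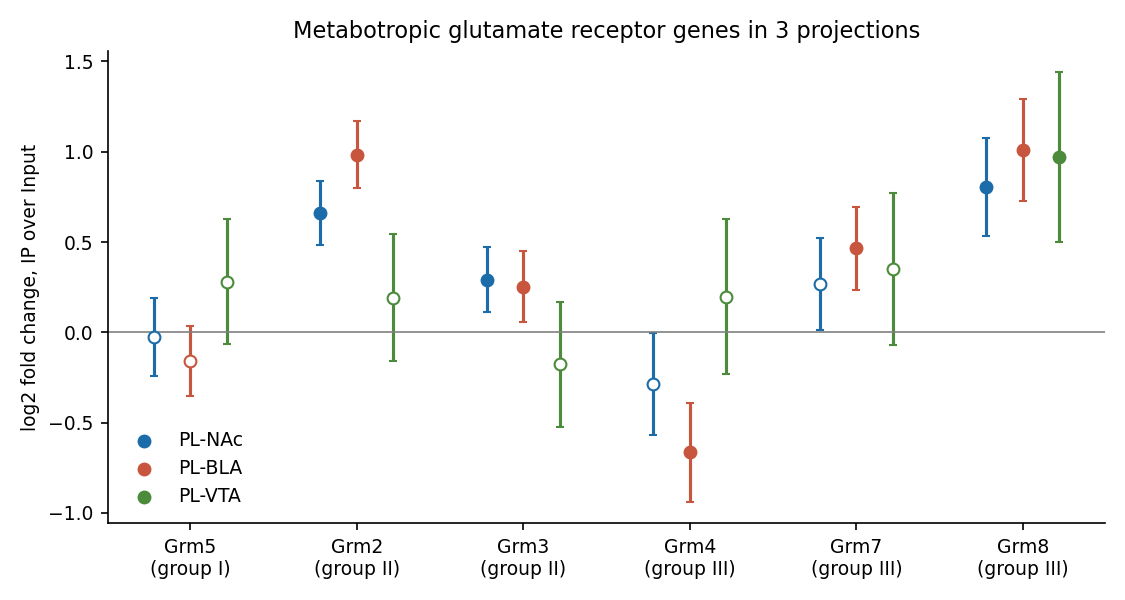
Points give the log2 fold change of IP over Input for each receptor gene in PL-NAc (blue), PL-BLA (red) and PL-VTA (green), bars the 95% interval, and filled points an adjusted p under 0.05. Grm8 lies above 0 in all 3 projections, Grm2 in PL-NAc and PL-BLA, and Grm4 reaches -0.66 in PL-BLA.

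Ordered by log2 fold change within a projection, Grm8 came first in all 3, and the last place was held by Grm4 in PL-NAc and PL-BLA and by Grm3 in PL-VTA. The 95% intervals of Grm8 and Grm2 overlapped in PL-NAc and PL-BLA, and those of Grm2 and the next gene were apart in both. In PL-BLA the intervals of Grm3 and Grm5, and of Grm5 and Grm4, were also apart. In PL-VTA each neighbouring pair overlapped. The PL-VTA intervals were wider, with a median SE of 0.22 among genes whose mean reached 50, against 0.12 in PL-NAc and 0.13 in PL-BLA, in the authors' deposited table.

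To compare projections, their log2 fold changes were subtracted and tested, with a two-sided Wald z and Benjamini-Hochberg adjustment over all genes tested in both tables. The projections share no library. Between PL-BLA and PL-VTA, 2 of 6 members differed, Grm2 and Grm4, in opposite directions, against 4.61% of all 15431 genes tested. The Grm2 enrichment was higher in PL-BLA than in PL-VTA by 0.79 (SE 0.20, 95% interval 0.39 to 1.19, adjusted p 0.00374, Wald test over all genes), a 1.73-fold ratio. For Grm4 the difference was -0.86 (SE 0.26, 95% interval -1.37 to -0.35, adjusted p 0.0236, Wald test over all genes), with PL-BLA the lower. Both calls were lost with standard errors 1.5 times as large (adjusted p 0.363 for Grm2 and 0.704 for Grm4, Wald test over all genes). With each projection centred on its excitatory markers, the Grm2 difference was 0.32 (adjusted p 0.205) and no longer called, by the Wald test over all genes.

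Grm5 and Grm3 also leaned apart between PL-BLA and PL-VTA without passing. The Grm5 difference was -0.44 (SE 0.20, adjusted p 0.330) and that of Grm3 0.43 (SE 0.20, adjusted p 0.359), by the Wald test over all genes. On the excitatory centring Grm5 was called, at -0.91 (adjusted p 0.000177, Wald test over all genes), whereas the Grm3 difference was -0.04 (adjusted p 0.884, Wald test over all genes). The share of all genes called on that centred difference was not counted. Grm8 differed by 0.04 between PL-BLA and PL-VTA, with a 95% interval of -0.51 to 0.59, and was not called.

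Of the other pairs of projections, PL-NAc against PL-BLA had 0 of 6 members called, against 1.55% of 17444 genes, and 1 member at an unadjusted p under 0.05. That 1 was Grm2, at -0.32 (SE 0.13, adjusted p 0.308, Wald test over all genes). PL-NAc against PL-VTA had 0 of 6 called, against 3.36% of 15432 genes, and 2 at an unadjusted p under 0.05. Those were Grm2 at 0.47 (SE 0.20, adjusted p 0.266) and Grm3 at 0.47 (SE 0.20, adjusted p 0.259), by the Wald test over all genes. The shares of 1.55% and 3.36% are for adjusted p. The share of all genes at an unadjusted p under 0.05 was not counted, so the unadjusted counts have no background beside them. Centred on excitatory markers, Grm4 (-0.95, adjusted p 0.00346) and Grm5 (-0.77, adjusted p 0.00271) were called lower in PL-NAc than in PL-VTA, by the Wald test over all genes. That centring moves the difference of every gene down by the same amount, and the share of all genes it calls was not counted. The 3.36% is for values as deposited, so these 2 centred calls have no background beside them. As deposited the Grm4 and Grm5 differences were -0.48 and -0.31, neither called. The centres, 0.63 in PL-NAc and 0.16 in PL-VTA, were subtracted as fixed values, so the centred p-values leave out their uncertainty. In PL-VTA the excitatory markers ran from -0.82 to 0.57. On that centring the Grm2 and Grm3 differences were 0.0037 and 0.0065 (adjusted p 0.989 and 0.980, Wald test over all genes). So the call of Grm2 in PL-NAc and its absence in PL-VTA did not amount to a called difference.

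**Figure D3:**
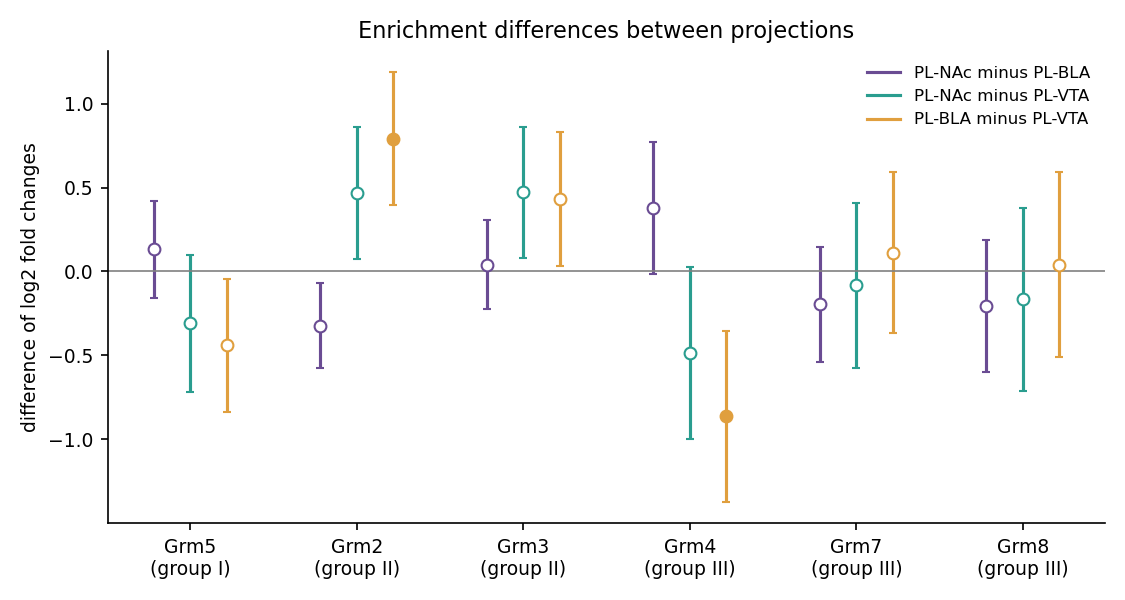
Points give the difference of 2 projections' log2 fold changes for each receptor gene (first named minus second), bars the 95% interval, and filled points an adjusted p under 0.05 over all genes. The 2 filled points are Grm2 (0.79) and Grm4 (-0.86) for PL-BLA minus PL-VTA.

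Set beside cell type markers, the receptor genes lay, by their medians, closer to excitatory neuron markers than to those of glia or interneurons. Excitatory markers rose in 7 of 7 cases in PL-NAc and 6 of 7 in PL-BLA, whereas in PL-VTA 2 rose and 2 fell, in the authors' deposited table. The vesicular glutamate transporter gene Slc17a7 was 0.62 (SE 0.06), 0.75 (SE 0.06) and 0.16 (SE 0.12) across PL-NAc, PL-BLA and PL-VTA in the authors' deposited table. Neurod6, a transcription factor of telencephalic excitatory neurons, was 0.999 (SE 0.07) for PL-NAc, 1.34 (SE 0.08) for PL-BLA and -0.82 (SE 0.15) for PL-VTA in the authors' deposited table. Inhibitory markers fell in 8 of 9, 9 of 9 and 7 of 9 cases, and their medians were -1.40, -1.33 and -1.69 in the authors' deposited table. Among them Sst was called higher in PL-NAc, at 0.26 (SE 0.09), and lower in PL-BLA (-0.53, SE 0.09) and PL-VTA (-1.69, SE 0.19). Oligodendrocyte and microglial markers were lower in 6 of 6 and 7 of 7 cases in each projection, and endothelial and mural markers in 5, 6 and 3 of 6, in the authors' deposited table. Oligodendrocyte precursors, which are known to express Grm5 and Grm7, had 3 of 4 markers lower in each projection in the authors' deposited table. The other marker, Cspg4, was 0.46 (SE 0.26), 1.02 (SE 0.25) and 0.72 (SE 0.39) across PL-NAc, PL-BLA and PL-VTA, and was called higher in PL-BLA. Implied counts summed over the 4 precursor markers were 219 in IP and 594 in Input for PL-NAc, 322 in IP and 613 in Input for PL-BLA, and 306 in IP and 645 in Input for PL-VTA. The part of these cells in the receptor values was not tested.

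**Figure D4:**
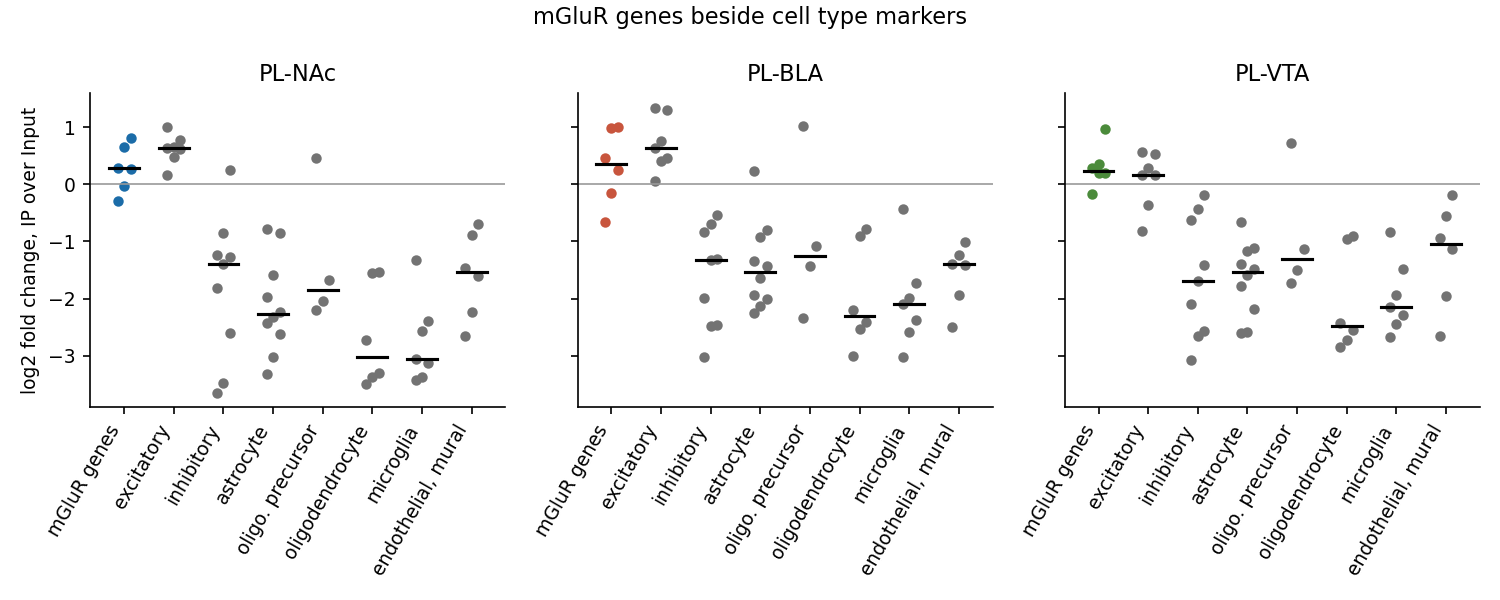
Each point is a gene's log2 fold change of IP over Input, coloured for the 6 receptor genes and grey for markers of 7 cell types, with a line at each list's median, in 3 projections. The receptor medians (0.28, 0.36 and 0.24) lie above 0, and those of glia and inhibitory neurons below -1.

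Genes that work with the receptors gave calls in both directions. Over all 6 lists that follow, 18 of 61 tested genes were higher and 16 lower in PL-NAc, 16 and 17 of 60 in PL-BLA, and 11 and 8 of 60 in PL-VTA, in the authors' deposited table. Over all tested genes 21.4% were higher and 21.7% lower in PL-NAc, 20.8% and 20.2% in PL-BLA, and 11.0% and 10.5% in PL-VTA. These shares are the background for each list below, and no list was tested against them. They include genes with few reads. With a minimum mean of 50, 19 of 58 list genes were higher and 14 lower in PL-NAc. The counts were 18 and 15 of 58 in PL-BLA and 11 and 7 of 58 in PL-VTA. Of all genes on that setting, 3854 were higher and 2970 lower of 12061 in PL-NAc. In PL-BLA 3677 were higher and 2882 lower of 12228, and in PL-VTA 1759 and 1509 of 12314. Centred on excitatory markers, without that minimum, the list counts higher and lower became 1 and 53 in PL-NAc, 1 and 49 in PL-BLA, and 5 and 15 in PL-VTA. Of all tested genes, that centring called 12329 of 17998 lower in PL-NAc, 12409 of 17668 in PL-BLA and 2293 of 15440 in PL-VTA. The first list is the machinery downstream of group I. Of 17 genes, 6 were higher and 4 lower in PL-NAc, 6 and 4 in PL-BLA, and 3 and 1 in PL-VTA, and the median was 0.19, then 0.24 and 0.19 in the authors' deposited table. Grasp, which encodes the receptor-binding scaffold tamalin, was 0.58 (SE 0.08), 0.75 (SE 0.08) and 0.19 (SE 0.17, not called) in PL-NAc, PL-BLA and PL-VTA in the authors' deposited table. Homer3, a scaffold of Purkinje cells, was the lowest of the list, at -1.82 (SE 0.35), -1.82 (SE 0.37) and -1.90 (SE 0.44) in that order in the authors' deposited table. Plcb3, a phospholipase C isoform, was -0.95 (SE 0.20), -0.63 (SE 0.20) and -0.72 (SE 0.33, not called) in that order in the authors' deposited table.

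Among 14 genes that act with groups II and III, 3 were higher and 5 lower in PL-NAc, 2 and 5 in PL-BLA, and 2 and 2 in PL-VTA, and the median was -0.05, then 0.00 and -0.02, in the authors' deposited table. Gnao1, a G protein alpha subunit, was 0.44 (SE 0.06), 0.46 (SE 0.07) and 0.44 (SE 0.13) in PL-NAc, PL-BLA and PL-VTA in the authors' deposited table. Gnai1, an inhibitory alpha subunit, was 0.33 (SE 0.06), 0.31 (SE 0.07) and 0.54 (SE 0.14) in the same order in the authors' deposited table. The calcium-stimulated cyclase gene Adcy1 was -0.41 (SE 0.07), -0.81 (SE 0.08) and -0.50 (SE 0.14) in that order in the authors' deposited table. Its difference, PL-NAc minus PL-BLA, was 0.40 (SE 0.11, adjusted p 0.0199, Wald test over all genes). Elfn1, a postsynaptic adhesion protein of interneurons that recruits Grm7 to the opposite terminal, was -0.95 (SE 0.23), -0.81 (SE 0.21) and -0.94 (SE 0.31) in that order in the authors' deposited table.

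Of 7 genes of receptor desensitisation, 3 were higher and 2 lower in PL-NAc, 2 and 2 in PL-BLA, and 0 and 1 in PL-VTA, in the authors' deposited table. The arrestin gene Arrb1 was -0.41 (SE 0.08), -0.38 (SE 0.09) and -0.65 (SE 0.17) in PL-NAc, PL-BLA and PL-VTA in the authors' deposited table. Rgs4, a regulator that ends G protein signals, was -0.16 (SE 0.06) for PL-NAc, -0.39 (SE 0.07) for PL-BLA and 0.08 (SE 0.14) for PL-VTA in the authors' deposited table. Its difference between PL-BLA and PL-VTA was -0.48 (SE 0.15, adjusted p 0.0398, Wald test over all genes). Rgs2 and Rgs7, of the same family, were 0.25 (SE 0.08) and 0.22 (SE 0.07) in PL-NAc and 0.24 (SE 0.08) and 0.36 (SE 0.08) in PL-BLA in the authors' deposited table. In PL-VTA they were 0.26 (SE 0.16) and -0.08 (SE 0.15), neither called, in the authors' deposited table.

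The peptide N-acetylaspartylglutamate (NAAG) is an agonist of Grm3. Of the genes for making and cutting it, the synthetase gene Rimklb was 0.67 (SE 0.15), 0.41 (SE 0.16) and 0.68 (SE 0.25) in PL-NAc, PL-BLA and PL-VTA, a higher call each time, in the authors' deposited table. Its relative Rimkla was -0.60 (SE 0.19), -0.67 (SE 0.20) and 0.13 (SE 0.29, not called) in the same order in the authors' deposited table. Folh1, the NAAG-cutting peptidase of astrocytes, was -1.73 (SE 0.40), -1.11 (SE 0.39) and -1.08 (SE 0.45, not called) in that order, at means of 24.5, 24.9 and 29.1, in the authors' deposited table. By count, 1 NAAG gene was higher and 2 lower of 4 tested in PL-NAc, 1 and 2 of 3 in PL-BLA, and 1 and 0 of 3 in PL-VTA, in the authors' deposited table.

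Of 4 genes linked to receptor-dependent synaptic depression, 1 was higher and 1 lower in PL-NAc, 0 and 1 in PL-BLA, and 2 and 2 in PL-VTA, in the authors' deposited table. Fmr1, a translation repressor, was -0.51 (SE 0.11), -0.33 (SE 0.11) and -0.84 (SE 0.19) in PL-NAc, PL-BLA and PL-VTA in the authors' deposited table. The phosphatase gene Ptpn5 was 0.25 (SE 0.06), -0.01 (SE 0.07, not called) and 0.51 (SE 0.17) in the same order in the authors' deposited table.

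Channel-forming glutamate receptors had a median near 0. Of 15 tested, 4 were higher and 2 lower in PL-NAc, 5 and 3 in PL-BLA, and 3 and 2 in PL-VTA, and the median was -0.01, then -0.06 and -0.01, in the authors' deposited table. The obligatory NMDA subunit gene Grin1 was 0.53 (SE 0.07), 0.59 (SE 0.09) and 0.45 (SE 0.17) in PL-NAc, PL-BLA and PL-VTA in the authors' deposited table. Gria2, the subunit that makes AMPA receptors impermeable to calcium, was 0.15 (SE 0.07), 0.32 (SE 0.06) and 0.50 (SE 0.13) in that order in the authors' deposited table. At the low end were Grin2c, at -2.64 (SE 0.22), -1.87 (SE 0.17) and -2.17 (SE 0.28), and Grik1, at -1.16 (SE 0.26), -0.91 (SE 0.27) and -0.93 (SE 0.39, not called), in the same order in the authors' deposited table. The metabotropic and channel-forming lists were not tested against each other.

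**Figure D5:**
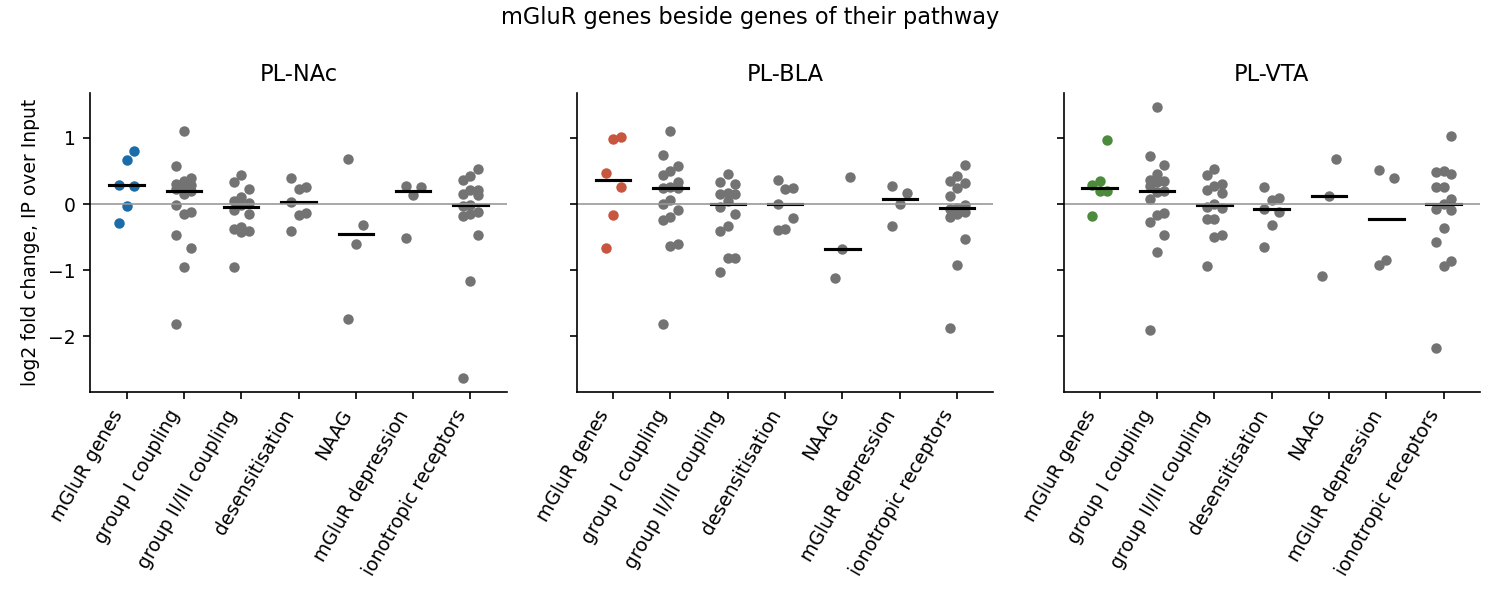
Each point is a tested gene's log2 fold change of IP over Input, coloured for the 6 receptor genes and grey for 6 lists of related genes, with a line at each list's median, in 3 projections. Group I coupling has medians of 0.19, 0.24 and 0.19, and channel-forming receptors of -0.01, -0.06 and -0.01.

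Genes with the most similar values were sought by Euclidean distance over the 3 log2 fold changes, among 10493 genes with a mean of at least 100 in each table. Each gene has only 3 such values, and those of 1 projection come from the same libraries for all genes. Near to Grm2 was the glycolytic enzyme gene Eno1, at a distance of 0.111 (log2 units). For Grm8 they were the chaperone gene Hsp90aa1 at 0.070 and Gm12346, annotated as a processed pseudogene whose reads may be shared with its parent gene, at 0.072. Grm4 had the least close neighbours, Inafm2 at 0.132 and Zfp84 at 0.140. The nearest genes were Gstm7 (0.045) and Nrbp2 (0.046) for Grm3, Eif2ak3 (0.022) and Ppp2r5a (0.030) for Grm5, and Sat2 (0.021) and Rapgef5 (0.023) for Grm7.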

How the data were processed

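Polysome-bound (IP) and total (Input) RNA of mouse prelimbic cortex was sequenced in 16 libraries in 6 groups, taken from the sample titles. The submitters' processing notes name STAR 2.3, featureCounts and DESeq2 with mm10 and GRCm38. Those notes and the labels name no annotation, strand setting, filter or model formula. The authors deposited 1 table for each projection. Its mean signal is the mean of normalized read counts, per the file headers. The deposited log2 fold change comes with its SE, also on the log2 scale. The deposited score is the Wald statistic, which equalled fold change over SE, and the deposited p-value and adjusted p were recomputed from it. Among genes with a mean under 1 the largest absolute log2 value was 0.31, 0.27 and 0.11 in PL-NAc, PL-BLA and PL-VTA, so the authors' values appear shrunken toward 0 and understate changes of genes with few reads. An adjusted p was present above means of 1.82, 2.39 and 8.58. All 6 receptor genes had one in each table.

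Mean counts summed to 15437849, 16347808 and 16520414 in PL-NAc, PL-BLA and PL-VTA, which stand for an average library, and 0.240%, 0.227% and 0.235% of them fell on rows without a symbol. The labels do not say whether replicates were separate animals, so p-values measure only the spread between these libraries. Implied IP and Input counts were computed from the mean and the fold change, with equal numbers of IP and Input libraries. Intervals are 95% normal intervals from the SE. The test of differences was tested on simulated data. The simulated noise was drawn from the deposited SEs, so it could not check those SEs, and its outcome is not reported here. The receptor genes and gene lists were chosen with earlier results of these data known. All 6 members are named in each comparison. Of each pathway list, the 2 highest and 2 lowest genes called in at least 2 projections are named, and for each member the 2 nearest genes, except that 2 genes these rules select are not reported here. Positions and exon lengths come from GENCODE M21. Python 3.11.15, numpy 2.4.6, scipy 1.17.1, pandas 2.3.3 and matplotlib 3.10.9 were used. Alternatives were a minimum mean of 50, no filter, 2 centrings, and standard errors times 1.5.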

Additional observations from a re-analysis of the deposited data

Results flagged for a closer look

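Between PL-BLA and PL-VTA the enrichment of 2 receptor genes differed by a test of the difference itself. The Grm2 difference was 0.79 on the log2 scale (adjusted p 0.00374, Wald test over all genes), and that of Grm4 was -0.86 (adjusted p 0.0236, Wald test over all genes), PL-BLA minus PL-VTA. With standard errors 1.5 times as large neither passed (adjusted p 0.363 for Grm2 and 0.704 for Grm4, Wald test over all genes). Centred on excitatory neuron markers, the Grm2 difference was 0.32 (adjusted p 0.205) and not called, and that of Grm4 was -1.33 (adjusted p 1.2e-05), by the Wald test over all genes. The share of all genes called on that centred difference was not counted. PL-VTA rests on 2 IP and 2 Input libraries.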

How the results depend on the processing

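No paired analysis was possible because the deposited tables hold comparisons and not values per library. For the same reason leaving out each replicate was not run. With a minimum mean of 50, no filter, or centring on all tested genes, each fold change and difference of the 6 members kept its side of the threshold and, where called, its direction, and the member counts were the same. Centring on excitatory neuron markers moved all genes down by 0.63, 0.63 and 0.16 in PL-NAc, PL-BLA and PL-VTA, and the share of calls that were higher became 3.21%, 2.82% and 27.5%, against 49.6%, 50.7% and 51.2% as deposited. Of all tested genes this centring called 12329 of 17998 lower in PL-NAc and 12409 of 17668 in PL-BLA. The centre was subtracted as a fixed value, so p-values on it leave out its own uncertainty. On this centring 0 members were higher and 4 lower in PL-NAc and 2 higher and 3 lower in PL-BLA, and 2 differed between PL-NAc and PL-VTA. The share of all genes that differed between projections on this centring was not counted. Fold changes that reversed were Grm3 at -0.34 and Grm7 at -0.36 in PL-NAc, and Grm3 at -0.38 and Grm7 at -0.17 in PL-BLA. Pathway and channel-forming list genes called higher and lower became 1 and 53 in PL-NAc, 1 and 49 in PL-BLA and 5 and 15 in PL-VTA, against 18 and 16, 16 and 17, and 11 and 8 as deposited. With standard errors 1.5 times as large, 0 members were higher in PL-VTA and 0 differed between PL-BLA and PL-VTA. List genes called higher were then 10, 9 and 3 in PL-NAc, PL-BLA and PL-VTA, and those called lower 12, 9 and 4. Of all tested genes, the larger standard errors left 2533 higher and 2294 lower of 17998 in PL-NAc. In PL-BLA 2264 were higher and 2013 lower of 17668, and in PL-VTA 469 and 591 of 15440. The share of all genes that then differed between projections was not counted. The cause of these shifts was not tested beyond the construction of each setting.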
